A study of Rattus norvegicus with 6 samples.

Results

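Gad1, Gad2 and Slc32a1 are the genes through which a neuron makes the inhibitory transmitter GABA and packs it into synaptic vesicles. These 3 genes were followed as Ensembl identifiers ENSRNOG00000000007, ENSRNOG00000018200 and ENSRNOG00000015393, which are 3 of the 17581 identifiers counted in fetal rat forebrain. They were selected on their shared role, with their levels in the high-dose and control libraries already known, so those levels are given as a description. Where calls of the tests fitted to the whole table are counted for the 3 genes, the count stands beside the share of all genes called and supports nothing. The count table lists identifiers alone, and the 3 symbols are those assigned to these identifiers when the genes were chosen.

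Forebrain came from Wistar rat fetuses at gestational day 18, with 3 control and 3 high-dose libraries, all labelled male. The dams were fed a food treat carrying vehicle (0 µg) or 1000 µg of FM550, a flame retardant product that blends brominated with organophosphate chemicals, on each of 10 days from gestational day 9 to gestational day 18. Tissue was collected 4 hours after the last dose, as forebrain microdissected from frozen, sectioned heads. The high dose comes to roughly 3.3 mg per kg each day, worked out from an average colony weight and not from each dam's own weight. The labels do not say which fetuses shared a dam, so the spread between these samples is not necessarily a spread between litters.

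Glutamate decarboxylase converts glutamate to GABA with pyridoxal phosphate as its cofactor, and rodents carry a pair of genes for it. Gad1 encodes GAD67, which is found throughout the cytoplasm and supplies most basal GABA, and Gad2 encodes GAD65, which is associated with vesicles at nerve terminals. Slc32a1 encodes the vesicular inhibitory amino acid transporter VGAT, which loads GABA and glycine into vesicles using the proton gradient across their membrane. In the fetal forebrain these genes mark GABA neurons. Many, though not all, of these neurons are born in the ganglionic eminences of the ventral forebrain and form the striatum or migrate into the cortex. There GABA acts as an early developmental signal before most synapses form.

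The sequence just upstream of each gene is shown because 3 genes of a single pathway are compared, and their promoter letters are a property that played no part in choosing them. All 3 symbols were found in the RefSeq promoter table (build GRCr8, + strand for each gene), which holds 33469 windows of 300 bases, each with 250 bases before and 50 after a start site. The stretches below end at the last base before the annotated gene. The Gad1 stretch has 58 bases because the start site of its window lies 192 bases inside the annotated gene. Capitals mark matches, on either strand, to the motifs named after the sequences.
Gad1 promoter, chr3:75777202-75777259: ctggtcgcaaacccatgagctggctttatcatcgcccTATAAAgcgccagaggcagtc
Gad2 promoter, chr17:89671468-89671717: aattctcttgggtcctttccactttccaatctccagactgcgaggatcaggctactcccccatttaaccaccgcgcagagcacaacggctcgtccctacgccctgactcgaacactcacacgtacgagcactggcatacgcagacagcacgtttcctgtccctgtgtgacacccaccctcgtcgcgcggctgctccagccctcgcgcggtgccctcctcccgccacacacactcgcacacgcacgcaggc
Slc32a1 promoter, chr3:167686995-167687244: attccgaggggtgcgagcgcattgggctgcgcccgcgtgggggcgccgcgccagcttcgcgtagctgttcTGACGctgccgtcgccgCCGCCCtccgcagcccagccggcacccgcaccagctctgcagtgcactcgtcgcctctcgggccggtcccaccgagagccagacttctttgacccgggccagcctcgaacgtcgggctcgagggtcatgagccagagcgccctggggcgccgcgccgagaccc

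The 6 motifs searched, on both strands, were TAATTA, the core bound by homeodomain proteins, CACGTG, an E-box bound by basic helix-loop-helix proteins, CAGCTG, another such E-box, TGACG, a part of the cAMP response element, GGGCGG, the GC box bound by Sp family proteins, and TATAAA, the TATA box of the core promoter. No matches overlapped in these 3 windows. The Gad1 stretch holds TATAAA, beginning 21 bases before the first annotated base of the gene, a motif present in 14.2% of all windows. The Slc32a1 stretch holds TGACG 180 bases and a GC box 163 bases before its start, against 21.2% and 33.1% of all windows with these motifs. Its window has another TGACG beginning at base 27 after the start, outside the printed stretch. The Gad1 window has a GC box 93 bases before the start site of the window. That start site lies 192 bases inside the annotated gene. This GC box therefore lies inside the gene, outside the printed stretch and downstream of the TATAAA match. The Gad2 window holds none of the 6 motifs, and no window of the 3 holds TAATTA or either E-box. TAATTA occurs in 5.36% of windows, the E-box CACGTG in 6.42% and the other E-box in 15.1%. All 3 windows were also high in G and C. Their G and C content was 67.7% for Gad1, 63.7% for Gad2 and 73.7% for Slc32a1, against a median of 51.7% over all windows. They hold 26, 29 and 42 CpG dinucleotides, against a median of 7. Of all windows, 88.4%, 81.5% and 95.7% had a lower G and C content, and 84.8%, 88.5% and 97.6% had fewer CpG. Windows this rich thus occur at other genes too. Only 58 of the 300 bases of the Gad1 window precede the annotated gene, so its composition mostly describes bases inside the gene. The motif matches describe letters in a window and not bound sites.

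Levels are given as CPM, counts scaled to a common library total after TMM scaling, which adjusts totals for composition. Gene lengths in transcripts were not used, so CPM values of different genes are not compared with each other. Library totals ran from 10525138 to 27100394 counts. On the first principal component of all tested genes high-dose replicate 2 (score 35.9) and control replicate 3 (8.99) had the highest scores, with the other 4 libraries between -23.6 and 0.197. On the second component they did not stand together, at 2.83 for high-dose replicate 2 and 21.7, the highest score, for control replicate 3. Across genes these 2 libraries deviated together from their group means (r = 0.414, the highest of 9 such pairs). Both measures come from the same levels, so the correlation is not separate evidence that these libraries stand apart. Fold changes and ratios without both are therefore given beside those of all 6. Of the 17581 genes, 13617 passed the filter on low counts, all 3 GABA genes among them, and each of the 3 also had at least 707 counts in every library, so none depended on its high group to pass. Marker genes of forebrain cell types, the other genes of GABA uptake, breakdown and reception, and the genes of other tissues were not looked up here, because the identifiers were not paired with symbols. The tissue label was therefore not checked against markers beyond the GABA genes themselves, which were present in all 6 libraries. In bulk tissue, a different number of GABA neurons and a different amount of RNA per neuron cannot be told apart.

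All 3 GABA genes had higher mean levels in the high-dose forebrain than in control forebrain, by between 31.3% and 45.5% in the fitted values. The groups did not overlap for the 2 decarboxylase genes and overlapped narrowly for the vesicular transporter. Of all tested genes, 5.15% had all 3 high-dose values above all 3 control values. By edgeR 0 of the 3 passed an adjusted p of 0.05, beside 0.00734% of all tested genes in either direction. DESeq2 called 2 of the 3 higher, beside 0.374% of the genes to which it gave an adjusted p.

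Gad1, the gene of the cytoplasmic decarboxylase, stood at 125, 108 and 107 CPM in control replicates 1, 2 and 3, and at 179, 161 and 137 CPM in high-dose replicates 1, 2 and 3. Each high-dose library was above each control library, and the lowest high-dose value (replicate 3) and the highest control value (replicate 1) were 137 and 125 CPM. The group means were 113 ± 10.4 CPM in controls and 159 ± 21.5 CPM at the high dose (SD, n = 3 each). The fitted high-dose level was 1.41 times the control level, or 0.49 on the log2 scale (standard error 0.11). These values rest on 1372 to 4902 counts per library.

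Gad2, the gene of the vesicle-associated decarboxylase, stood at 122, 102 and 92.0 CPM in control replicates 1, 2 and 3. In high-dose replicates 1, 2 and 3 it stood at 179, 143 and 137 CPM. Again the groups did not overlap, and the nearest libraries were high-dose replicate 3 and control replicate 1. The means were 105 ± 15.2 CPM in controls and 153 ± 22.5 CPM at the high dose (SD, n = 3 each). The fitted ratio was 1.45, or 0.54 on the log2 scale (standard error 0.13), on 1181 to 4878 counts per library.

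Slc32a1, the gene of the vesicular GABA transporter, stood at 65.1, 60.0 and 55.1 CPM in control replicates 1, 2 and 3, and at 96.9, 64.8 and 74.3 CPM in high-dose replicates 1, 2 and 3. Here high-dose replicate 2 lay among the controls, just under control replicate 1, while the other 2 high-dose libraries lay above all 3 controls. The means were 60.0 ± 5.0 CPM in controls and 78.7 ± 16.5 CPM at the high dose (SD, n = 3 each). The fitted ratio was 1.31, or 0.39 on the log2 scale (standard error 0.14). This gene had the fewest counts of the 3, from 707 to 2647 per library.

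**Figure D1:**
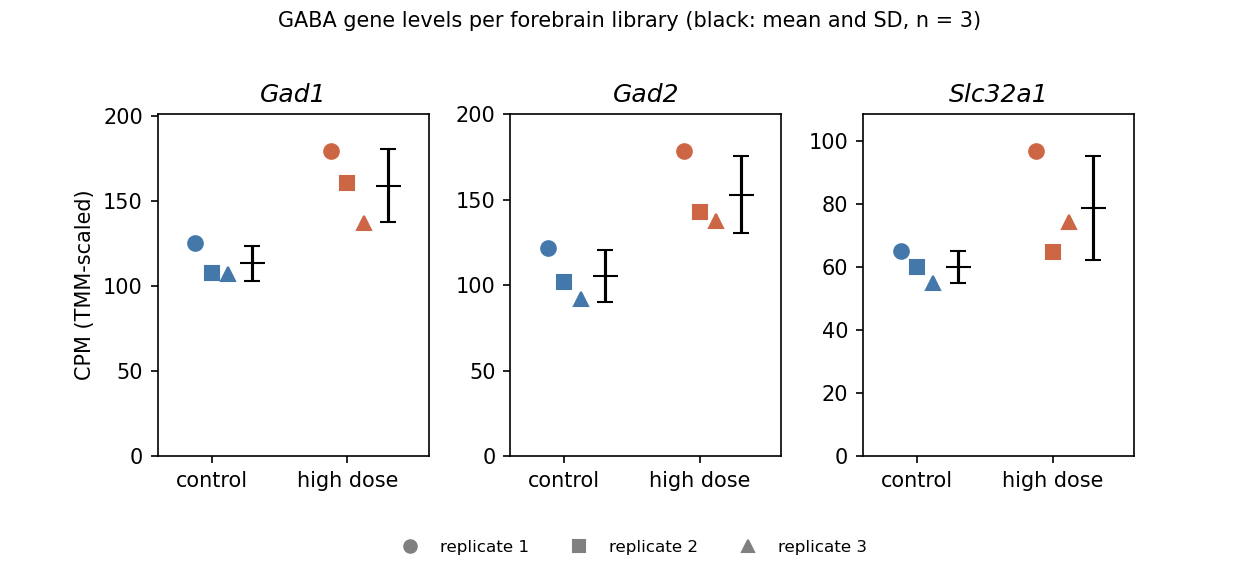
Each panel has its own linear y axis, starting at 0, of TMM-scaled CPM for Gad1, Gad2 and Slc32a1 in each control and high-dose library (points, with the replicate number as the shape), with the group mean and SD in black (n = 3). The high-dose points of Gad1 and Gad2 lie above every control point, whereas high-dose replicate 2 of Slc32a1, at 64.8 CPM, lies just under control replicate 1, at 65.1 CPM.

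The spread between libraries of a group was larger than counting error for all 3 genes. Counting error alone, as the Poisson coefficient of variation of a single library's count, was between 1.43% and 3.76%. Across control libraries the coefficient of variation was 9.16% for Gad1, 14.5% for Gad2 and 8.33% for Slc32a1, and across high-dose libraries it was 13.5%, 14.7% and 21.0%. The biological coefficient of variation that edgeR estimated from both groups was 10.3% for Gad1, 11.9% for Gad2 and 13.3% for Slc32a1, beside a median of 11.9% over all tested genes. For Slc32a1 the highest high-dose library was 1.5 times the lowest, a ratio larger than its fitted fold change between the groups. For Gad1 and Gad2 the same ratio was 1.31 and 1.30, smaller than their fitted fold changes.

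The libraries stood in nearly the same order for each gene. All 3 genes were highest in high-dose replicate 1 and lowest in control replicate 3. Among all tested genes, 14.4% were highest in high-dose replicate 1 and 16.8% were lowest in control replicate 3. Gad1 and Gad2 placed the 6 libraries in the identical order, with high-dose replicates 1, 2 and 3 followed by control replicates 1, 2 and 3, an order shared by 16 other tested genes (18 with the 2, or 0.132% of those tested). Slc32a1 departed from it through high-dose replicate 2, which came just under control replicate 1. High-dose replicate 1 was also the deepest library, with 27100394 counts. After every library was thinned to 10525138 counts, the log2 fold changes were 0.49 for Gad1, 0.57 for Gad2 and 0.38 for Slc32a1. The thinning drew at random from the finished counts, so it was bound to leave these values nearly unchanged. Any part of depth in the high values of high-dose replicate 1 was not tested.

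Ratios of 2 genes within a library need no scaling between libraries, so they show where the genes parted from each other. The Gad1 to Gad2 ratio, expressed as log2 relative to the control mean, was -0.073, -0.032 and 0.10 in control replicates 1, 2 and 3. In high-dose replicates 1, 2 and 3 it was -0.10, 0.061 and -0.12. The groups overlapped, and the high-dose mean minus the control mean was -0.054 on the log2 scale, smaller in size than the SD of 0.093 in controls and 0.10 at the high dose (n = 3 each). It was -0.0021 without control replicate 3, -0.11 without high-dose replicate 2 and -0.060 without both, so its size depended on single libraries. The Slc32a1 to Gad1 ratio was -0.030, 0.071 and -0.041 in the controls, against 0.026, -0.39 and 0.036 in high-dose replicates 1, 2 and 3. High-dose replicate 2 stood alone, below every other library, while high-dose replicates 1 and 3 lay within the range of the controls. The largest counting SD of this ratio in a library was 0.067. The mean difference of -0.11 between the groups therefore rested on high-dose replicate 2, and was 0.031 without it and 0.010 without it and control replicate 3.

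The Slc32a1 to Gad2 ratio was -0.10, 0.039 and 0.063 in the controls. In high-dose replicates 1, 2 and 3 it was -0.079, -0.33 and -0.083. High-dose replicate 2 was again the lowest library. The mean difference was -0.17, with an SD of 0.089 in controls and 0.15 at the high dose (n = 3 each), and it was -0.081 without high-dose replicate 2 and -0.049 without that library and control replicate 3. The part that this library's other differences play in its low Slc32a1 ratio was not tested.

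**Figure D2:**
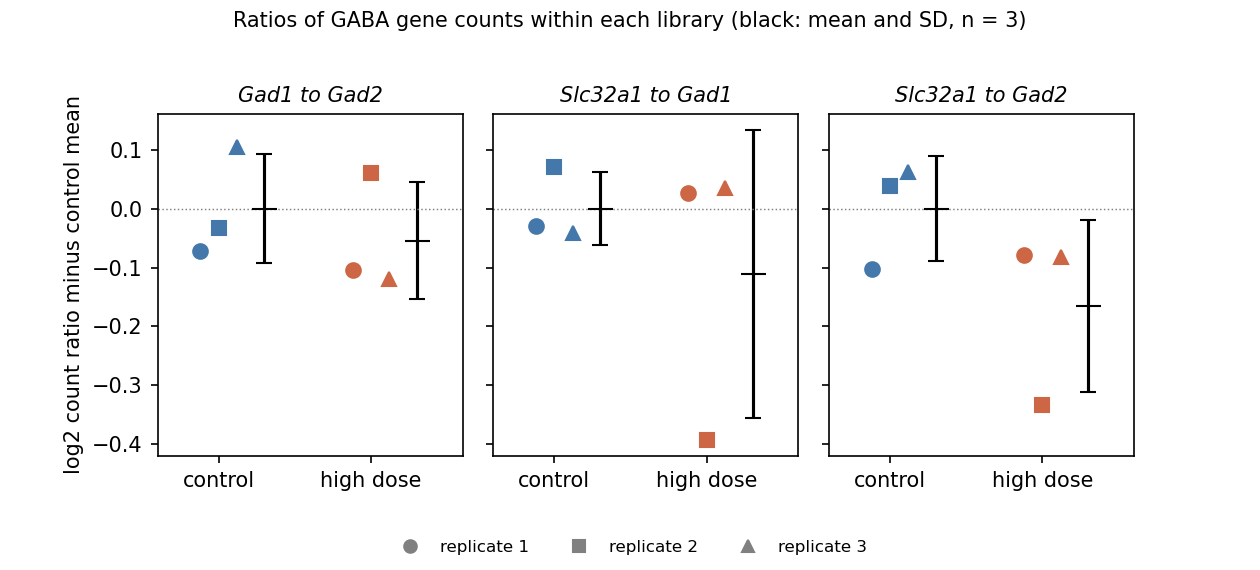
Log2 ratio of raw counts within each library (y axis, minus the control mean, which is the dotted line) for the 3 pairs of genes, in control and high-dose libraries (points, with the replicate number as the shape) with mean and SD in black (n = 3). High-dose replicate 2 lies at -0.39 for Slc32a1 to Gad1 and at -0.33 for Slc32a1 to Gad2, below all other libraries.

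Set against the whole table, the 3 fitted values lay in the upper part of the range. A log2 fold change at least as high as that of Gad2 was fitted for 359 of the 13617 tested genes (2.64%), as that of Gad1 for 438 (3.22%) and as that of Slc32a1 for 641 (4.71%). The median over the 3 was 0.49, beside 0.0030 over all tested genes, and 3 of 3 were above 0, beside 50.9% of all tested genes.

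By edgeR's quasi-likelihood test with Benjamini-Hochberg adjustment, 0 of the 3 genes passed an adjusted p of 0.05. The test called 0.00734% of all tested genes in either direction, 1 gene, which was lower. At an unadjusted p under 0.05, 3 of 3 were higher, beside 3.07% of tested genes called higher. limma-voom called 0 of the 3, with 0.00734% of all genes. DESeq2 called 2 of the 3, Gad1 and Gad2, both higher, and 0.374% of the 15515 genes to which it gave an adjusted p were called higher. All 3 high-dose values were above all 3 control values for 2 of the 3 genes and for 5.15% of tested genes. Because the genes were chosen with this comparison known, these counts are a description and nothing is read from them.

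**Figure D3:**
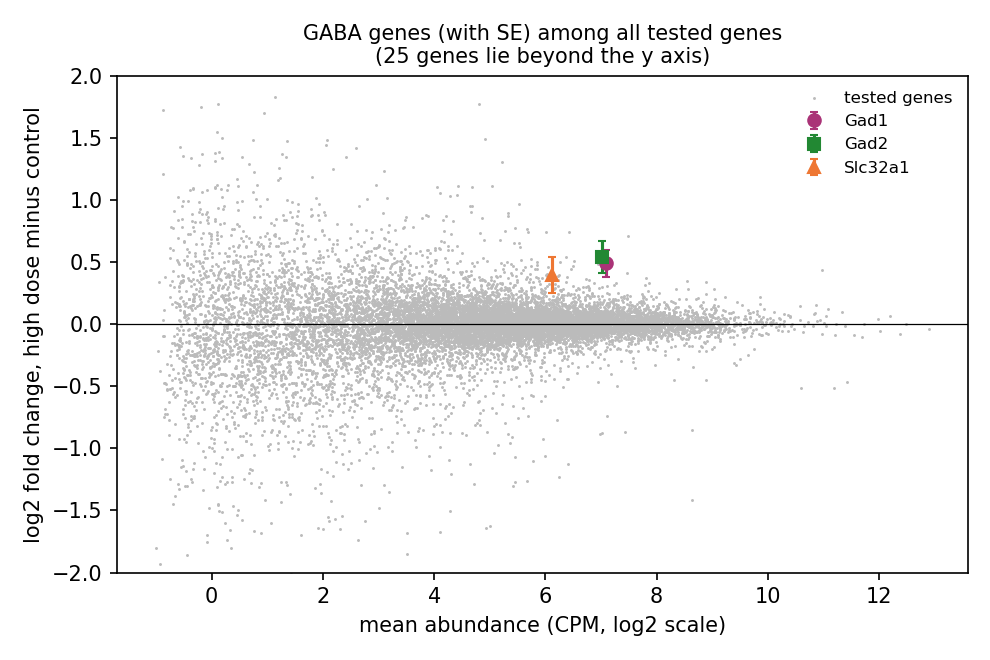
The y axis is the fitted log2 fold change (high dose minus control) and the x axis the log2 of mean CPM, for all 13617 tested genes (grey points) and for Gad1, Gad2 and Slc32a1 (coloured symbols, bars are the standard error). The 3 GABA genes lie at 0.49, 0.54 and 0.39, and 25 genes lie beyond the y axis limits.

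The sizes of the differences depended on single libraries more than on the method. Without high-dose replicate 1, the highest library for all 3 genes, the log2 fold change was 0.39 for Gad1 (standard error 0.11), 0.41 for Gad2 (0.12) and 0.21 for Slc32a1 (0.11). Without high-dose replicate 2, the library with the low Slc32a1 ratios, it was 0.49 for Gad1, 0.59 for Gad2 and 0.52 for Slc32a1. Without control replicate 3 and high-dose replicate 2 together, the 2 libraries that deviated together, it was 0.46 for Gad1 (standard error 0.16), 0.51 for Gad2 (0.16) and 0.47 for Slc32a1 (0.12). In that fit the 3 values lay closer together than with all 6 libraries, and edgeR called 0 of the 3, beside 1.16% of tested genes called higher. With 1 surrogate variable in the fit, which set high-dose replicate 2 (-0.741) and control replicate 3 (-0.357) apart from the other 4 libraries (0.17 to 0.365), the values were 0.51, 0.60 and 0.48, and edgeR called 1 of the 3, Slc32a1, beside 0.778% of tested genes called higher.

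**Figure D4:**
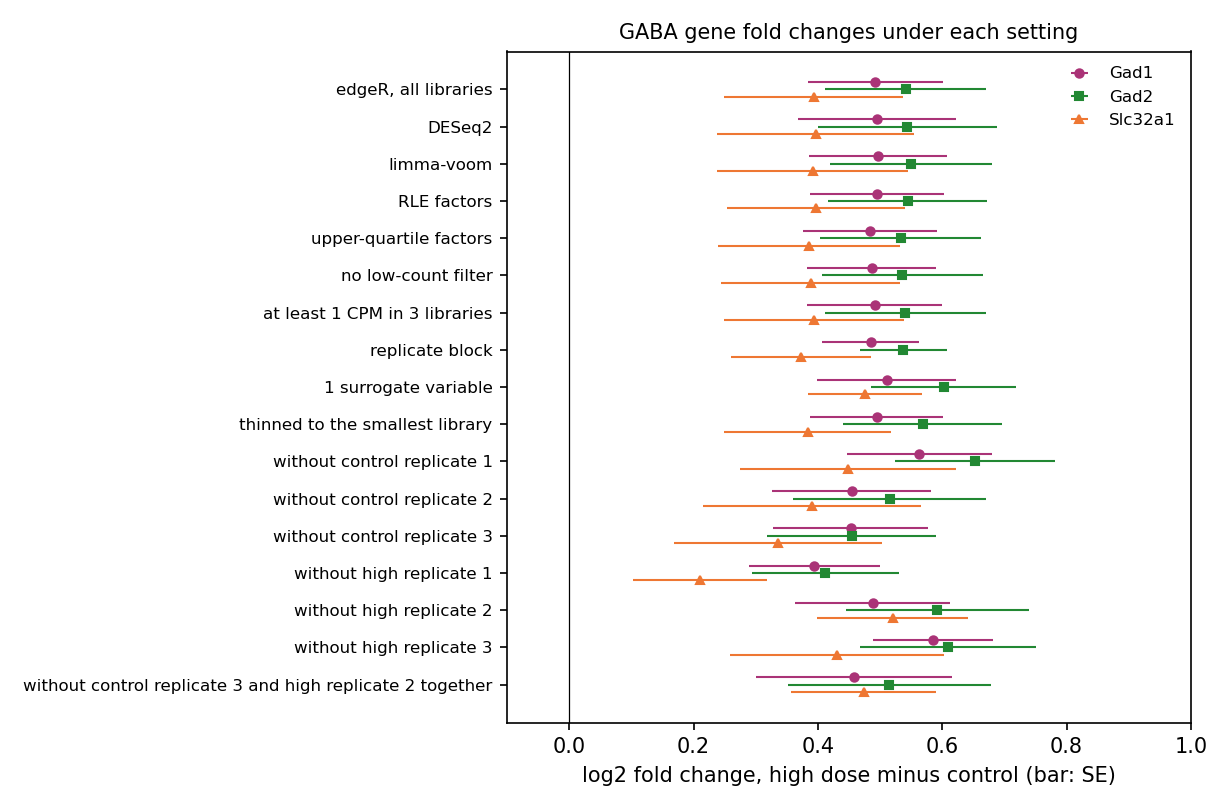
Log2 fold change, high dose minus control (x axis, bars are the standard error), of Gad1, Gad2 and Slc32a1 under the reported edgeR fit and 16 other settings (y axis). All points lie above 0, and the lowest is Slc32a1 without high-dose replicate 1, at 0.21.

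The genes most like the 3 across libraries were ranked by Pearson's r with the mean of their standardized log2 CPM, over the 6 libraries and among 9751 other genes of at least 10 CPM on average. ENSRNOG00000028845 came first (r = 0.988). It stood at 17.1, 14.4 and 12.2 CPM in control replicates 1, 2 and 3 and at 31.5, 22.5 and 23.3 CPM in high-dose replicates 1, 2 and 3, a difference of 0.83 on the log2 scale (standard error 0.18). ENSRNOG00000008374 came second (r = 0.984), with 166 to 170 CPM in controls and 174 to 181 CPM at the high dose. Its difference on the log2 scale was 0.076 (standard error 0.055), so a high r came with a much smaller difference. Pearson's r takes no account of the size of differences. The small differences between libraries of a group were not set against counting error for this gene. With 6 libraries that share their groups, depth and composition, these values describe a pattern over libraries only.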

How the data were processed

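Poly(A) RNA libraries that mark the strand were read as 125-base single-end reads, per the labels' protocols. FastQC, STAR, HTSeq and build rn6 are listed in the submitters' processing notes. Tool versions, the annotation and the use of strand in counting were not given in the sources used here. Reads of genes that overlap may therefore have been mixed. Transcript variants of a gene share 1 count. The authors deposited raw counts per gene, not normalized. Columns were tied to samples by the library name in the description.

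The members, the lists and the tests were chosen with earlier results of these data known. edgeR 4.0.16 (limma 3.58.1, R 4.3.3) was fitted to all 6 libraries with group as the only term, TMM scaling, robust quasi-likelihood dispersions and filterByExpr (minimum count 10, minimum total 15). Benjamini-Hochberg adjustment ran over all 13617 tested genes, with a threshold of 0.05. Standard errors of log2 fold changes were derived from F (the absolute change over √F). Log2 CPM used a prior count of 2. Genes named were the 3 members in full and the 2 genes most like their mean profile. The pathway and cell type lists were to be matched by symbol and were not used, since 0 of the 47357 genes of the RefSeq gene table (GRCr8) carry an Ensembl identifier. Promoter letters are RefSeq's, from build GRCr8. The fits were also run on simulated counts, drawn independently for each library with dispersions estimated from these data. Deviations shared between libraries were not simulated, so that run does not cover them.

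Other settings tried were limma-voom, DESeq2 1.42.0, upper-quartile or RLE factors, no filter on low counts or one of 1 CPM in 3 libraries, a block for replicate number, a fit with 1 surrogate variable (sva 3.50.0), thinning to 10525138 counts, an adjusted p under 0.1, and leaving out libraries. No pair of libraries within a group agreed within sampling noise (chi-square per degree of freedom 6.09 to 27.4).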

Additional observations from a re-analysis of the deposited data

How the results depend on the processing

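The log2 fold change of each of the 3 genes stayed above 0 in all 16 alternatives and moved by less than the spread between replicates. It ran from 0.39 to 0.59 for Gad1, from 0.41 to 0.65 for Gad2 and from 0.21 to 0.52 for Slc32a1. All alternatives refit the same libraries for genes chosen with this comparison known, so the kept sign is a description and not a separate test. For Gad1 and Gad2, whose groups did not overlap, leaving out libraries could hardly turn it. The number of the 3 genes past the adjusted threshold, a count added after the data were seen, was 0 in the reported fit, 2 with DESeq2, 1 with 1 surrogate variable and 0 in the other 14 alternatives. Over all genes the count past the threshold was 1 in the reported fit, 198 with DESeq2, 26 with no low-count filter and 277 with 1 surrogate variable. At an adjusted p under 0.1 it was 51, and with control replicate 3 and high-dose replicate 2 both left out it was 412. Of these, 0, 58, 4, 106, 6 and 158 were higher at the high dose, in that order. Those fits tested 13617 to 17560 genes. The 2 libraries left out were picked because they scored highest on the first principal component and deviated together in these same data. Such a choice can lower the spread within groups. With single libraries left out, the count over all genes ran from 0 to 24. The Slc32a1 to Gad1 ratio difference was -0.11, ran from -0.18 to 0.031 with single libraries left out, and was 0.010 with both control replicate 3 and high-dose replicate 2 left out, so its sign turned only where high-dose replicate 2 was left out. The cause was not tested.

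In a fit with a replicate block, the log2 fold changes were 0.48 for Gad1, 0.54 for Gad2 and 0.37 for Slc32a1, and 0 genes in all passed the threshold. Deviations of same-numbered libraries correlated at 0.227, -0.275 and -0.21, which gives no common direction, and no pairing by number was used. The ratio differences are the same with the block by construction. Counts of 707 or more per library limit the precision less than the spread among 3 libraries per group does.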
